A study of Rattus norvegicus with 145 samples.

Results

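The genes described here are the rat major histocompatibility complex (MHC) genes and the genes that make, cut, carry and load the peptides MHC molecules display. They were chosen by symbol: every gene whose symbol starts with RT1-, the prefix of the rat MHC, and B2m, Cd74, Tap1, Tap2, Tapbp, Psmb8, Psmb9, Psmb10, Psme1, Psme2, Nlrc5 and Ciita. The rule found 60 of the 17337 genes in the count tables, of which 39 were class I heavy chains, 10 were class II chains and 11 were among the 12 symbols named above (Nlrc5 was not analysed here). The rat liver samples came from a study of acetamide, a small amide that causes liver tumours in rats, given daily in water by oral gavage. In experiment A, male Hsd:WI rats, a Wistar stock, aged 9 to 10 weeks received 0, 30, 100, 300 or 1000 mg/kg body weight/day (mkd) for 7 days and were sampled on day 8. In experiment B, male and female Crl:WI rats, another Wistar stock, aged 8 to 10 weeks received 0, 300, 500, 750, 1000 or 1500 mkd and were sampled on day 8 after 7 days or on day 29 after 28 days. Each of the 29 groups held 5 rats, 25 rats in experiment A and 120 in experiment B, and RNA of the left liver lobe was sequenced from each rat. The 0 mkd groups are vehicle controls that received water alone by the same gavage. The 5 control males of day 29 carry a label that places them in the first exposure experiment, while their titles and their strain place them in experiment B, where they were kept.

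MHC class I molecules sit on nearly all nucleated cells. A heavy chain pairs with beta-2-microglobulin (B2m) and holds a peptide that was cut from the cell's own proteins by the proteasome, pumped into the endoplasmic reticulum by the Tap1-Tap2 transporter and loaded with the help of tapasin (Tapbp). Interferon exchanges catalytic proteasome subunits for Psmb8, Psmb9 and Psmb10 and raises the proteasome activator subunits Psme1 and Psme2. MHC class II molecules are made mainly by dendritic cells, B cells and macrophages, among them the Kupffer cells of the liver, and present peptides from engulfed proteins. Their chains are guarded by the invariant chain (Cd74), and their transcription needs Ciita, the class II transactivator. Hepatocytes, which make up most of the liver's mass, carry class I and normally little class II.

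The start regions of 8 genes are shown: 7 carry matches to the motifs searched in class I, class II and loading genes, and RT1-T24-1, described below in females of experiment B, carries none. RefSeq entries on GRCr8, a newer build than the Rn6 build of the count tables, were found for 58 of the 60 genes, 52 of them on chromosome 20, and 51 had a promoter entry of 250 bases before to 50 bases after the start. Each line gives the 200 bases before the start, 5′ to 3′ on the gene's strand, with the matches to 4 motifs searched on both strands in capitals.
RT1-Da (chr20:4515215-4515414, + strand): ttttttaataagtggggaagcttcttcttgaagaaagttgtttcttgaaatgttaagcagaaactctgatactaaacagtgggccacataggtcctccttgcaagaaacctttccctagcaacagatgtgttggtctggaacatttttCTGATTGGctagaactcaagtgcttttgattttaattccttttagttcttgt
RT1-Ba (chr20:4576857-4577056, + strand): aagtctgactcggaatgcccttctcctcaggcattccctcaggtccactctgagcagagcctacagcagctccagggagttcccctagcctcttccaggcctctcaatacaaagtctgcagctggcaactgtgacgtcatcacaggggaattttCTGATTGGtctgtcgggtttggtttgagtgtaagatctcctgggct
RT1-A2 (chr20:4872671-4872870, + strand): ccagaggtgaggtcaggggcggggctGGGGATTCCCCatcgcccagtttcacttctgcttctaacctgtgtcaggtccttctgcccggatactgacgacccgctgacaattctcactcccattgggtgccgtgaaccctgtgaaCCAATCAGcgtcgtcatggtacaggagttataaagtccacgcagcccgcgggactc
Tap1 (chr20:4668544-4668743, - strand): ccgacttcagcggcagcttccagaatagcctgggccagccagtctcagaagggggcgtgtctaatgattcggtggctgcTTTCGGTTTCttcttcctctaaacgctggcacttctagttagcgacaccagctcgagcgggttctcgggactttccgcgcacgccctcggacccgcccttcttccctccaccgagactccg
Tapbp (chr20:4967878-4968077, - strand): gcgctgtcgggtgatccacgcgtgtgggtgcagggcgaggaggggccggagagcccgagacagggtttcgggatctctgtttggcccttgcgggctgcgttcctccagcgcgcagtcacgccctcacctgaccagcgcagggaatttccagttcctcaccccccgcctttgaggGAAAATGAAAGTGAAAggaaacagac
Psmb10 (chr19:50743293-50743492, - strand): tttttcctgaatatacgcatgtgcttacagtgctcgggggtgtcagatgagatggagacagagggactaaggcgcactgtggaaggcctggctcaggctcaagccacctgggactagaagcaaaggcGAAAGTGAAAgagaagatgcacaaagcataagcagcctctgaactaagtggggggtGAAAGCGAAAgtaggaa
B2m (chr3:129549130-129549329, + strand): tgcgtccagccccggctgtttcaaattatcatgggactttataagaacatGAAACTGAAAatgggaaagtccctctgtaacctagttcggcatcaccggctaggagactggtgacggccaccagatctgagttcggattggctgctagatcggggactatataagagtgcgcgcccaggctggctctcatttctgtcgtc
RT1-T24-1 (chr20:2766104-2766303, + strand): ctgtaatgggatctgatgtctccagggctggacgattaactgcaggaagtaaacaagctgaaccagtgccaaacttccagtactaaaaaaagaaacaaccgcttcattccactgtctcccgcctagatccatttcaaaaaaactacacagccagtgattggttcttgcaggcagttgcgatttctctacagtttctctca
The motifs were the Y box, CTGATTGG, bound by the NF-Y factor, an interferon-stimulated response element (ISRE), which is TTTC, any 2 bases and TTTC, a gamma-activated site (GAS), TTCNNNGAA, and a kappa B site, whose letters are the first run of capitals in RT1-A2. The later run of capitals in RT1-A2 and the capitals in RT1-Da and RT1-Ba are Y boxes, the other capitals are ISRE matches, and those of Tapbp hold a pair of ISRE matches that overlap each other. The Y box was in 7 of 9 class II promoters (77.8%) and 12 of 32 class I promoters (37.5%), against 3.5% of all 33469 promoters. The ISRE letters were in 3 of 3 transport and loading promoters, Tap2 included, in 3 of 5 immunoproteasome promoters, in B2m and in 3 of 32 class I promoters, against 3.92% of all promoters, and in 0 of 9 class II promoters. The kappa B letters were in 8 of 32 class I promoters and in 0 of 9 class II promoters, against 0.0627% of all. GAS letters were in 3 of the 51 promoters (5.88%), against 8.87% of all. RT1-T24-1 had none of the 4 in the 200 bases shown. It was not alone in this: the same stretches of Cd74, Psmb8, Psmb9, RT1-M3-1 and RT1-T24-3, not shown, held none either. The counts above used the whole promoter entry, which is longer than these stretches. In it Psmb8 had an ISRE and a GAS match, Psmb9 a Y box, and RT1-M3-1 a GAS match and a Y box. A match is a description of letters in the window searched only. Close variants of the letters, such as tttcacttct in the RT1-A2 line beside the ISRE letters, were not counted, so a promoter without a match can hold another form.

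Libraries held between 15449716 and 39986531 reads assigned to genes, and the trimmed mean of M values (TMM) scaling factors ran from 0.735 to 1.91. No 2 libraries held identical counts. The labelled tissue was visible in the hepatocyte markers: in the experiment A controls 10 such genes, among them Alb (albumin) and Ttr (transthyretin), summed to between 248250 and 332670 CPM (counts scaled by library size). After the filter on low counts, 41 of the 60 genes were tested in each of the 5 data sets, 24 of class I and 7 of class II, and the same number passed when the highest dose was left out of the filter. Of the remaining 19, 8 were at 0 in every rat and the others were low, with at most 17 counts in any rat except for RT1-M1-2 (up to 78), RT1-M4 (106) and RT1-M5 (100). Tap2, RT1-DMa, RT1-DMb, RT1-Ha, RT1-CE12, RT1-CE13, RT1-Cl and RT1-N1 were the 8 with 0 counts. A 0 in every rat limits the reads assigned to that gene entry and does not show that the transcript was absent. Many RT1 genes are near-identical copies, and the counting left out reads that aligned with low quality, so the share of a read pool given to one RT1 gene and not to its neighbour is uncertain. Values below are CPM on effective library sizes and are not per length, so levels are compared between rats and not between genes.

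In experiment A the MHC and antigen processing genes were higher at 1000 mkd, with a higher median fold change in class I than in class II. Of the 41 genes tested, 32 were up-regulated at 1000 mkd against the vehicle controls and 0 were down-regulated, where a call needs a fold change of at least 1.5 and an adjusted p of at most 0.05 (edgeR's quasi-likelihood test with Benjamini-Hochberg adjustment over all genes). By the same call 21.4% of the 11323 genes tested differed, 14% higher and 7.45% lower. The call covered 21 of 24 class I chains with a median log2 fold change of 1.53 over the 24, 3 of 7 class II chains with a median of 0.70, 4 of 5 immunoproteasome genes with a median of 1.00, Tap1, Tapbp, Cd74 and Ciita, while the median over all genes was 0.001. All 41 had a log2 fold change above 0. In 14 of the 41 the lowest 1000 mkd rat lay above the highest control, against 9.01% of all genes tested. Leaving out 1 rat at a time gave 25 to 34 calls, and leaving out replicate number 3 or 5 in every group gave 18 and 21. The calls of RT1-CE16, RT1-S2 and RT1-S3 were lost under 16, 13 and 9 of 22 alternatives, and that of RT1-T24-2 under 10 of 21. Whether class I and class II differed in their change was not tested. In a bulk sample, more cells of a type and more RNA per cell cannot be told apart.

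**Figure D1:**
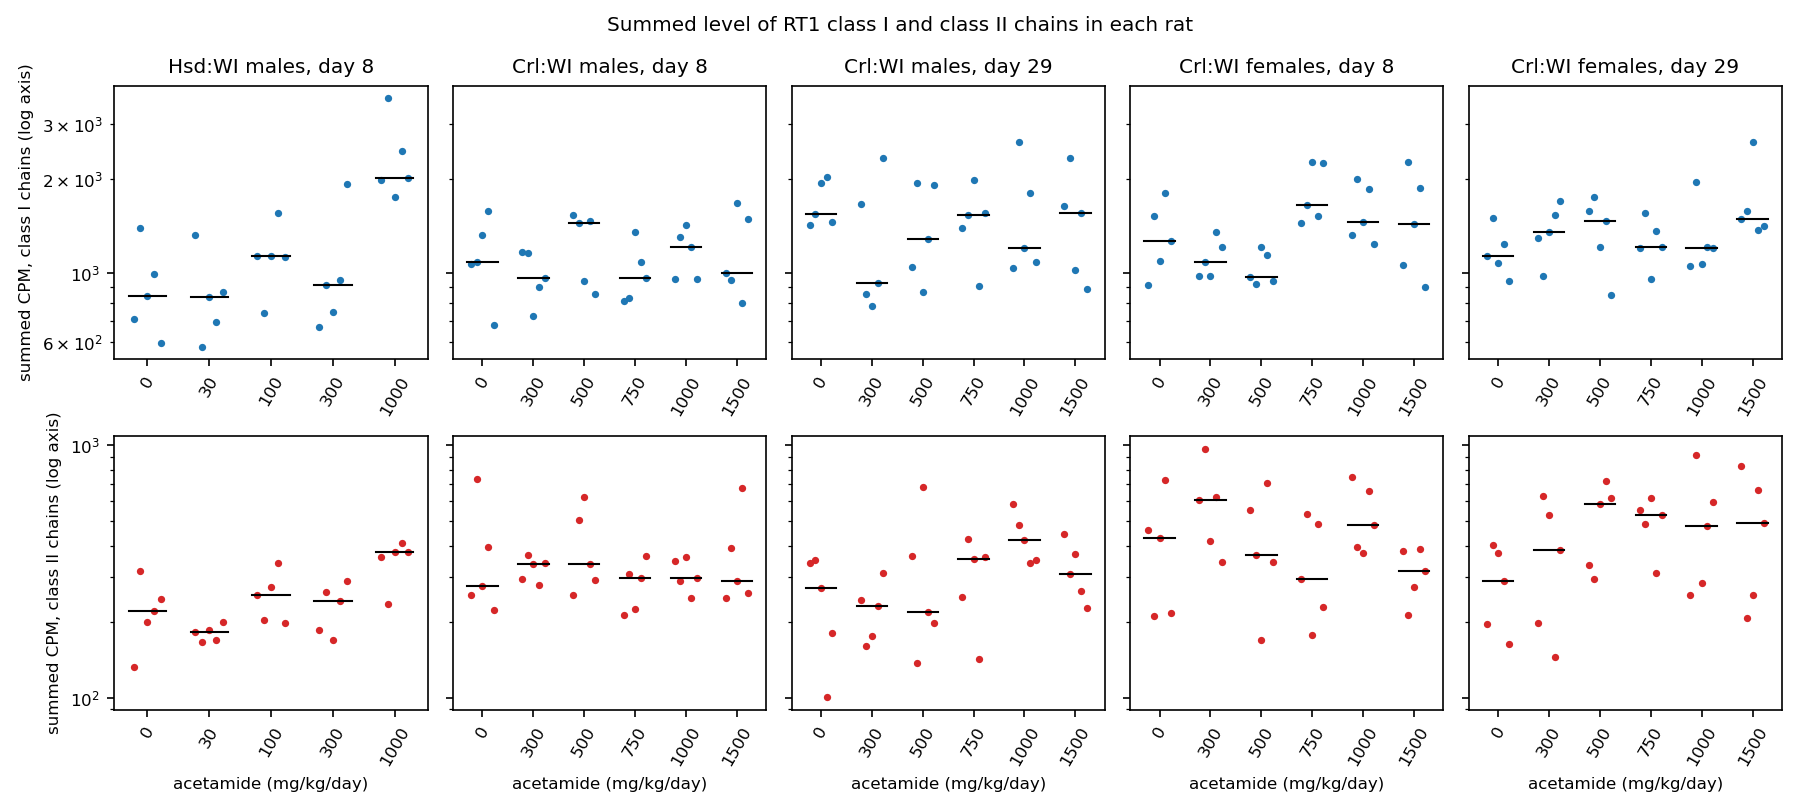
Summed CPM of the class I chains and of the class II chains in each rat (one point per rat, log axis) against dose in mg/kg/day, with a panel per data set and class and lines at the group medians. In experiment A the 5 rats at 1000 mkd lie between 1753 and 3629 CPM for class I, above the controls at 594 to 1393, while the class II sums of 235 to 412 overlap the controls at 133 to 319.

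Tapbp, which bridges the peptide transporter and the class I heavy chain, had the lowest adjusted p among the genes. Its CPM was 33.4, 58.8, 37.9, 44.3 and 46 in the control males and 72, 185, 81.2, 172 and 111 at 1000 mkd. All 5 treated rats lay above all controls. The level was 2.82 times that of the controls (SE 0.22 on the log2 scale, n = 5 per group, edgeR adjusted p = 0.000141). Tap1, one chain of the peptide transporter, ran from 16.8 to 57.6 CPM in controls and from 53.5 to 173 at 1000 mkd, with a log2 fold change of 1.59 (SE 0.37, edgeR adjusted p = 0.00288), and 3 of the 5 treated rats exceeded every control. For both genes the rats with replicate numbers 3 and 5 were the highest of the treated group.

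RT1-CE1, a class I heavy chain at low counts, had 1.19, 1.63, 0.529, 1.14 and 0.459 CPM in controls and 2.61, 3.94, 2.84, 4.22 and 3.25 CPM at 1000 mkd. The groups did not overlap, and the log2 fold change was 1.76 (SE 0.32, edgeR adjusted p = 0.000542). RT1-M3-1, the rat counterpart of the mouse H2-M3 molecule that presents N-formylated peptides, had 2.14, 2.72, 2.95, 3.91 and 3.41 CPM in controls. At 1000 mkd it had 5.98, 12.4, 5.06, 9.85 and 12 CPM. Every treated rat was above every control, with a log2 fold change of 1.58 (SE 0.29, edgeR adjusted p = 0.000595). RT1-CE15 had 5.61, 10.9, 5.14, 9.75 and 4.59 CPM in controls and 13.6, 29.3, 14.3, 25.5 and 20.9 CPM at 1000 mkd. Again there was no overlap, and the log2 fold change was 1.53 (SE 0.29, edgeR adjusted p = 0.000672). RT1-CE10 had 72, 108, 76.5, 113 and 49.1 CPM in controls and 182, 348, 179, 215 and 247 CPM at 1000 mkd. The lowest treated rat was above the highest control, with a log2 fold change of 1.48 (SE 0.29, edgeR adjusted p = 0.000745).

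RT1-A2, a gene of the classical class I region, ran from 137 to 415 CPM in controls and from 480 to 985 CPM in the treated males, with a log2 fold change of 1.36 (edgeR adjusted p = 0.00508) with no overlap. RT1-A1, of the same region, ran from 52.7 to 206 CPM in controls and from 156 to 514 CPM at 1000 mkd, with a log2 fold change of 1.47 (edgeR adjusted p = 0.0245) and overlapping groups. The largest class I fold changes, picked out after their values were seen, were those of RT1-T24-3 (log2 3.34, SE 0.70), RT1-CE6 (3.22, SE 0.87) and RT1-CE3 (2.44, SE 0.73). RT1-CE6 and RT1-CE3 also varied widely between rats at the lower doses. At 30, 100 and 300 mkd the highest rat had 21.0, 14.4 and 16.4 CPM of RT1-CE6, against at most 4.32 CPM in controls. The part of this spread in the fold changes of RT1-CE6 and RT1-CE3 was not tested. RT1-T24-3 had 2.6, 18.2, 4.99, 8.22 and 4.1 CPM in controls and 16.6, 125, 31.8, 123 and 90 CPM at 1000 mkd (edgeR adjusted p = 0.00143). Replicates 3, 5 and 6 held the 3 high values. The remaining called class I genes were RT1-CE2, RT1-CE4, RT1-CE5, RT1-CE14, RT1-CE16, RT1-M2, RT1-N3, RT1-O1, RT1-S2, RT1-S3, RT1-T24-1 and RT1-T24-2, with log2 fold changes between 1.04 and 2.05. The 3 class I genes tested but not called were RT1-A3 (0.56), RT1-M6-2 (0.45) and RT1-N2 (0.55).

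Among the proteasome genes the 3 inducible catalytic subunits were up-regulated in experiment A. Psmb9 ran from 15.3 to 45 CPM in controls and from 48.4 to 133 CPM at 1000 mkd, without overlap, with a log2 fold change of 1.45 (SE 0.36, edgeR adjusted p = 0.00479). Psmb8 had a log2 fold change of 1.17 (edgeR adjusted p = 0.0076), and Psmb10 of 1.00 (edgeR adjusted p = 0.0122). The activator subunit Psme2 was also called, with a log2 fold change of 0.98 (edgeR adjusted p = 0.00603), while its partner Psme1 was not (0.20, edgeR adjusted p = 0.329). Of the 16 constitutive proteasome subunits listed, 0 were called in either direction, and their median log2 fold change was -0.26. Of 7 tested helpers of peptide loading, among them Canx, Calr and Pdia3, only Tapbpl, a tapasin-related editor of class I peptides, was called (log2 0.59).

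B2m, the common light chain of class I, was abundant in all groups and was not called. Its CPM was 1532, 2899, 2077, 2448 and 1839 in controls and 2212, 2411, 2708, 2828 and 2764 at 1000 mkd. No treated rat exceeded the highest control. The log2 fold change was 0.26 (SE 0.20, edgeR adjusted p = 0.344).

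**Figure D2:**
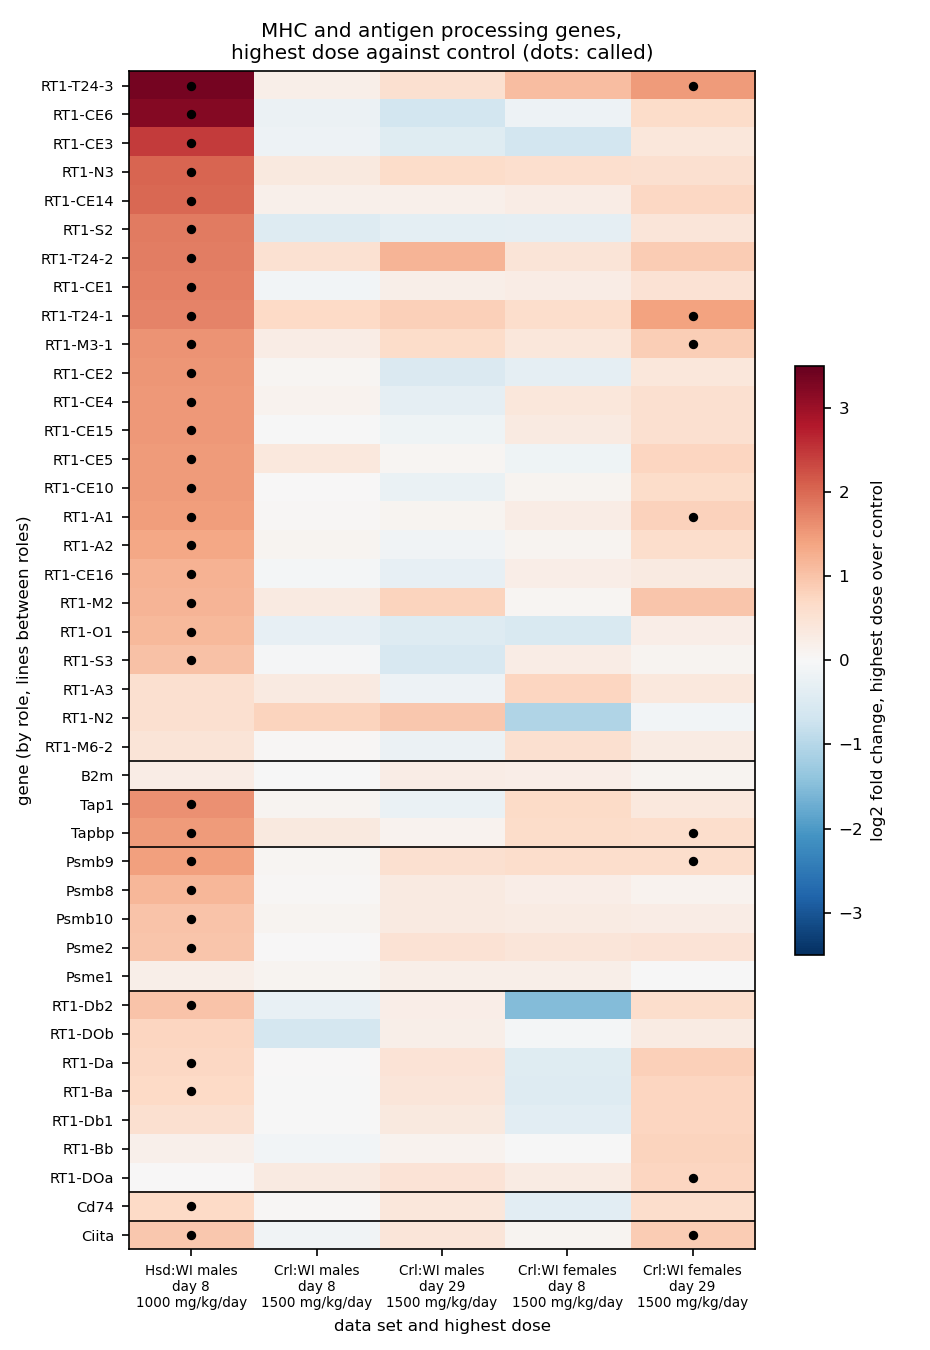
Log2 fold change against vehicle controls (colour scale) of the 41 tested genes, grouped by role in rows, at the highest dose of the 5 data sets in columns, with a dot on the cells that passed the call. The Hsd:WI column at 1000 mkd has 32 dots, the column of females day 29 at 1500 mkd has 8 and the other columns have 0.

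The class II chains had a lower median log2 fold change than class I in experiment A (0.70 against 1.53). For RT1-Db1, RT1-DOa, RT1-DOb and RT1-Bb, replicate 4 and other treated rats lay within the control range. For RT1-Da and RT1-Ba, replicate 3 was the only treated rat within it. This position is in scaled CPM and depends on the TMM factor of the rat. The factors ran from 0.791 to 1.91 in experiment A, and unscaled counts were not compared. RT1-Da, the alpha chain of the D molecule, had 52.3, 94.4, 68, 76.7 and 71.7 CPM in controls and 114, 71.7, 137, 150 and 131 CPM at 1000 mkd. The treated rats lay above all controls except replicate 3, with a log2 fold change of 0.73 (SE 0.20, edgeR adjusted p = 0.0076). RT1-Ba, the alpha chain of the B molecule, had 37.2, 84.7, 77.6, 86.4 and 87.7 CPM in controls and 124, 81.4, 121, 128 and 152 CPM at 1000 mkd. The pattern over rats was the same as for RT1-Da, with a log2 fold change of 0.70 (SE 0.22, edgeR adjusted p = 0.0193). RT1-Db2 was called with a log2 fold change of 1.01 (edgeR adjusted p = 0.00908), and all 5 treated rats exceeded the controls. RT1-Db1 (0.55), RT1-DOa (0.01), RT1-DOb (0.76) and RT1-Bb (0.17) did not pass.

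Cd74, the invariant chain, had 137, 298, 197, 224 and 215 CPM in controls and 335, 251, 381, 415 and 358 CPM at 1000 mkd. Replicate 3 was again the treated rat within the control range, and the log2 fold change was 0.70 (SE 0.19, edgeR adjusted p = 0.00796). Ciita had 4.17, 4.72, 5.03, 5.9 and 4.43 CPM in controls and 8.76, 6.59, 8.93, 11.6 and 10.9 CPM at 1000 mkd. All 5 treated rats were above the controls, replicate 3 by the least, and the log2 fold change was 0.94 (SE 0.19, edgeR adjusted p = 0.001). Replicate 3 thus had the lowest RT1-Da, RT1-Ba, Cd74 and Ciita of the treated rats while it had the highest Tapbp, Tap1, RT1-CE10 and RT1-A2. Of 15 tested genes listed for class II processing, its regulation or costimulation, 7 were called higher. They were the lysosomal proteases Ctss, Ctsb and Lgmn, the class II promoter factors Rfx5 and Nfya, the ubiquitin ligase March1 and the costimulator Cd86.

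**Figure D3:**
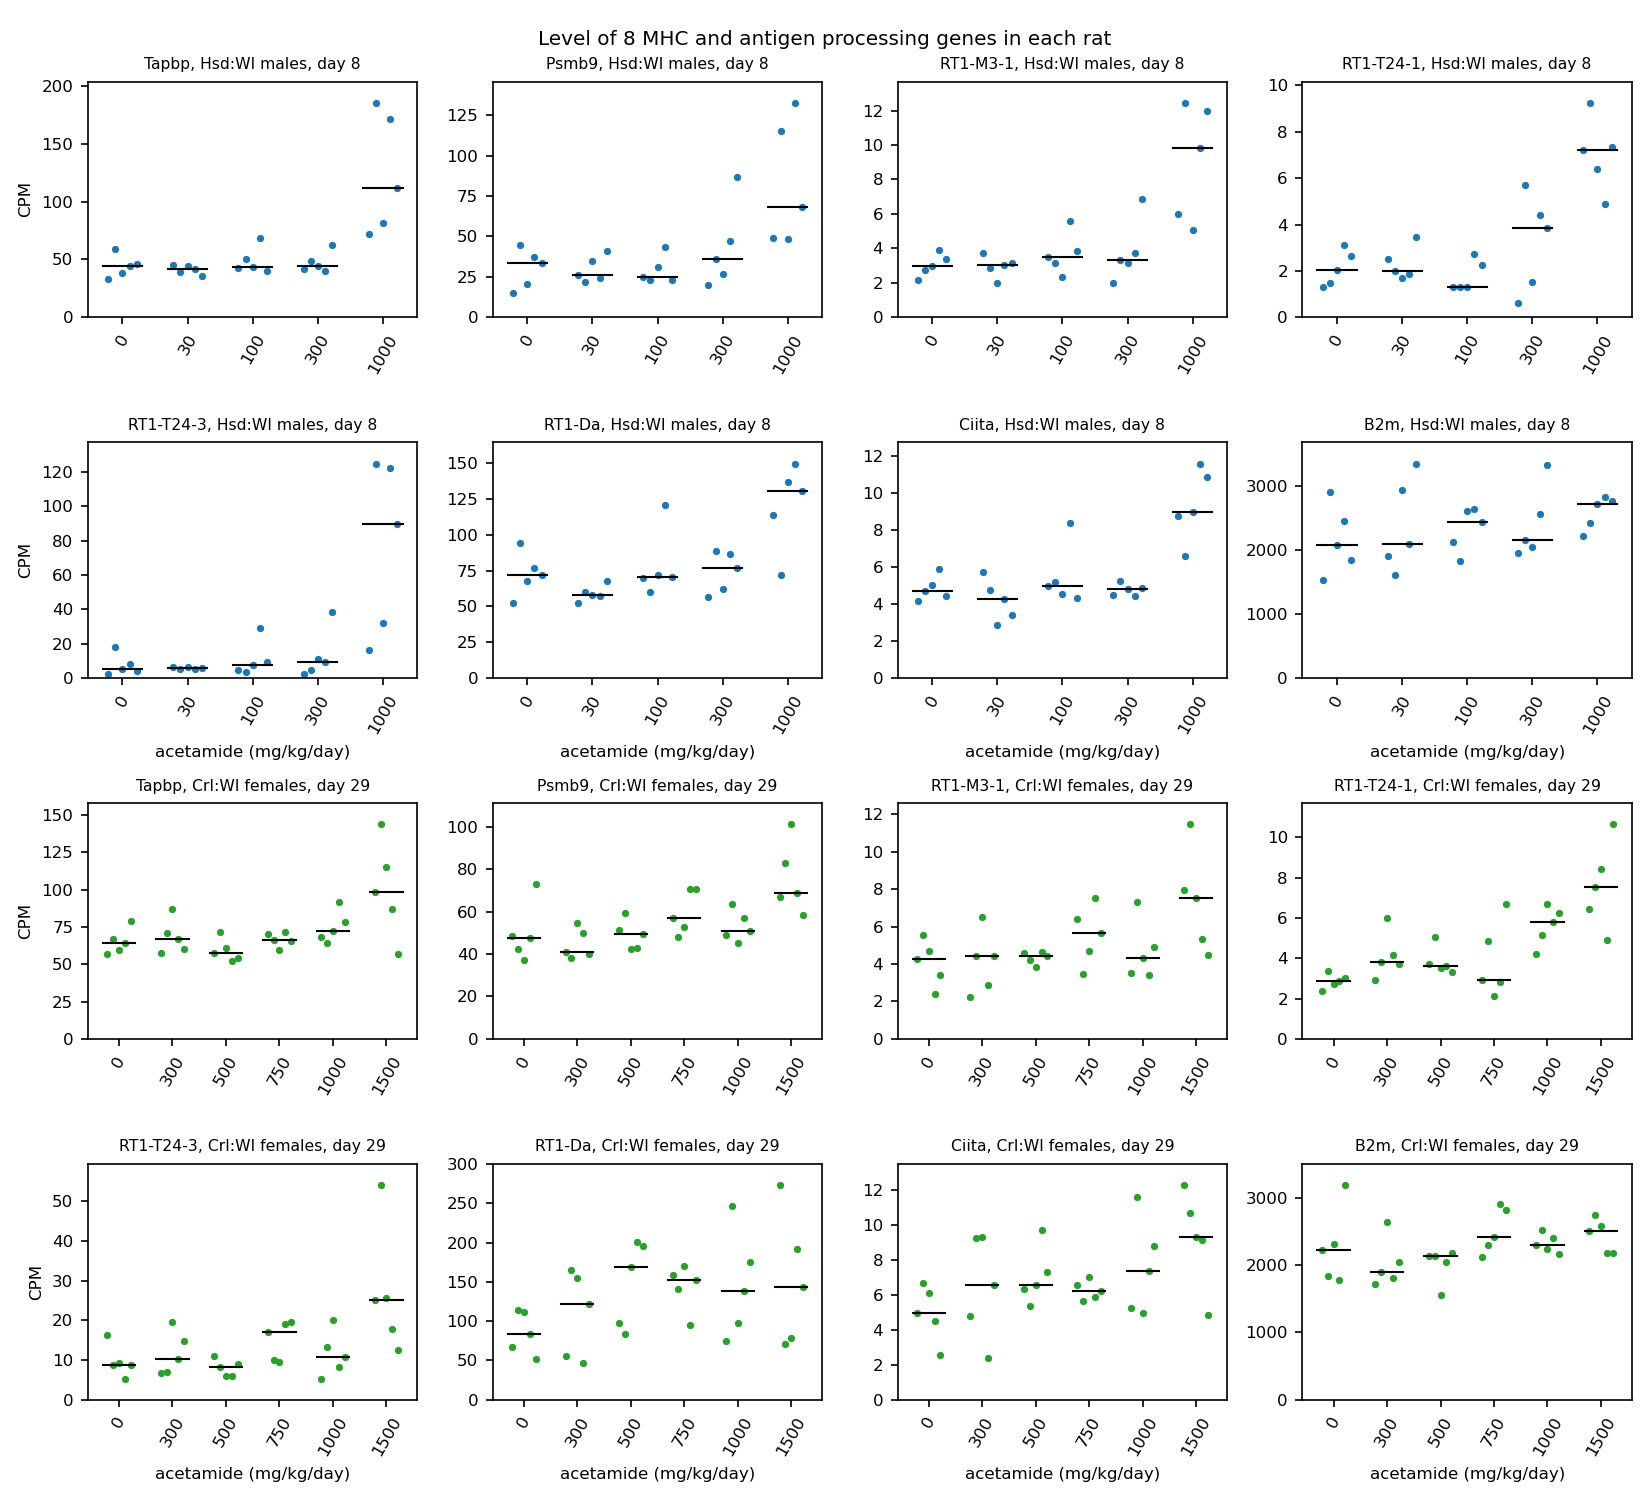
CPM in each rat (points, linear axis from 0, lines at the group medians) of Tapbp, Psmb9, RT1-M3-1, RT1-T24-1, RT1-T24-3, RT1-Da, Ciita and B2m against dose in mg/kg/day, in the males of experiment A (upper 2 rows) and the females day 29 of experiment B (lower 2 rows). The 1000 mkd rats of experiment A lie above their controls for Tapbp (72 to 185 against 33.4 to 58.8 CPM) and overlap them for B2m.

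Markers of several cell types also differed between the 1000 mkd rats and the controls of experiment A. All 10 tested T and NK cell markers were higher at 1000 mkd in experiment A, among them Cd3e (log2 2.19), Cd8a (1.37) and Prf1 (1.55), and the summed level of the list was 26.2 to 32.0 CPM in controls and 45.2 to 83.0 CPM at 1000 mkd. Of 11 macrophage and Kupffer cell markers 7 were higher, Cd68 (1.61), Cd163 (1.18) and Csf1r (0.92) among them, and the Kupffer cell markers Clec4f (0.59) and Marco (0.33) were not called, with sums of 611 to 1864 CPM in controls and 1527 to 2714 CPM at 1000 mkd. At low counts in controls, Cd3d had 2 to 5 and Cd3e 2 to 11 counts a rat, against 3 to 48 and 19 to 94 at 1000 mkd, and the neutrophil marker Mpo had 0 to 4 counts in both groups. Dendritic cell markers were called in 2 of 7 (Ccr7 and Cd83; sums 12.6 to 23.0 and 26.8 to 35.4 CPM), endothelial markers in 3 of 6 and B cell markers in 0 of 4. Of 4 tested neutrophil markers, Fcnb was higher and S100a8 and S100a9 were lower. Of the 10 hepatocyte markers 4 were lower, Alb, Ttr, Apoc3 and Ambp, and the sum of the list was 75025 to 242930 CPM at 1000 mkd. The part of these cell types in the change of the MHC genes was not tested.

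Genes of the interferon response moved in the same comparison. The transcript of interferon gamma itself (Ifng) had 0 counts in every control rat of experiment A and at most 2 counts in any rat at 1000 mkd. Of 13 tested genes of the interferon gamma list 6 were higher, with log2 fold changes of 4.21 for Cxcl10, 3.16 for Gbp2 and 2.00 for Socs1, while Irf1 was not called (0.73). Of 10 tested genes of the type I interferon list 5 were higher, with 5.20 for Isg15 and 4.09 for Irf7. Sums of the interferon gamma list were 402 to 584 CPM in controls and 538 to 1298 CPM at 1000 mkd, and those of the type I list 428 to 897 and 807 to 3275 CPM. Their part in the change of the MHC genes was not tested. Of 6 class I-like genes outside the MHC, Procr was higher and Azgp1 lower.

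**Figure D4:**
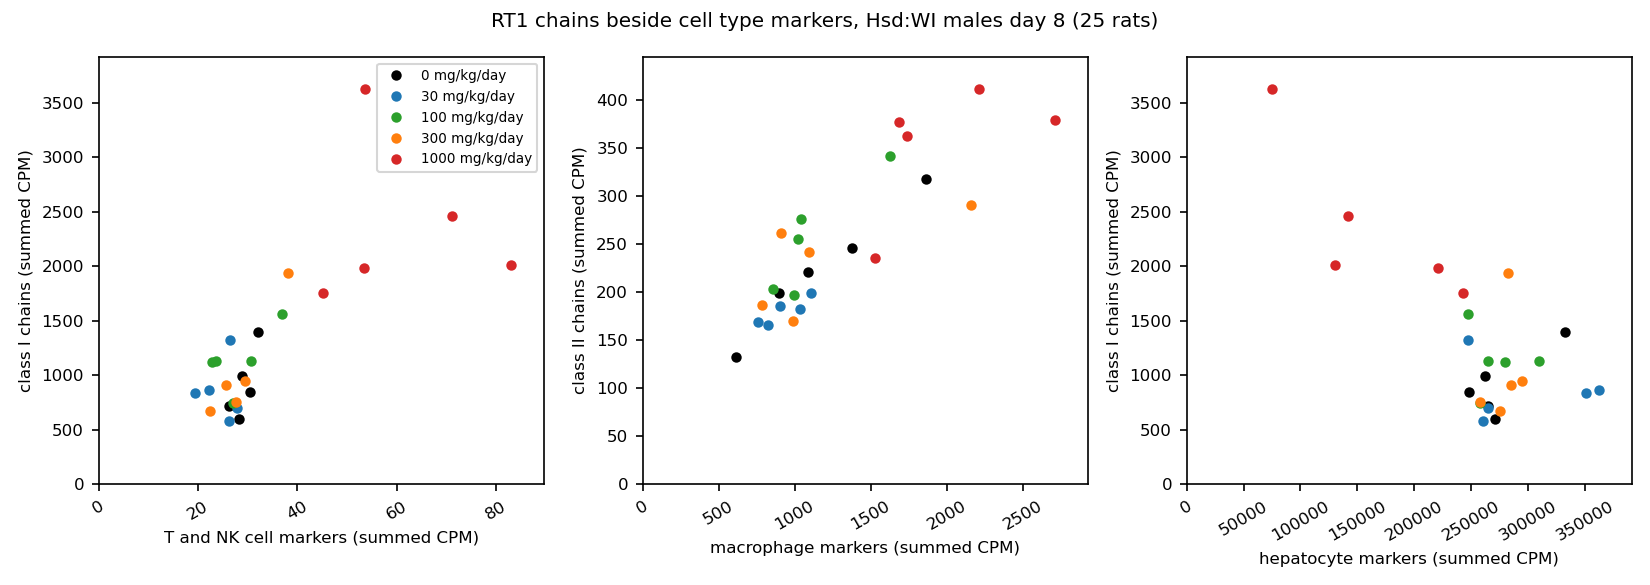
Summed CPM of the class I or class II chains (vertical axes) against summed CPM of cell type marker lists (horizontal axes) in each of the 25 rats of experiment A, coloured by dose in mg/kg/day. The 5 rats at 1000 mkd have the highest T and NK cell sums (45.2 to 83.0 CPM, controls 26.2 to 32.0 CPM) and the lowest hepatocyte sums (75025 to 242930 CPM, controls 248250 to 332670 CPM).

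At the lower doses of experiment A no gene of the group was called. Against the same controls, the 41 genes had 0 calls by edgeR and 0 by DESeq2 at 30, 100 and 300 mkd, where 0% of all genes were called, and an unadjusted p under 0.05 was reached by 1 gene at 30 mkd, by 4 at 100 mkd and by 0 at 300 mkd. A linear trend over all 5 doses passed an adjusted p of 0.05 in 34 of the 41, all rising, 22 of class I and 4 of class II, against 45.9% of all genes (23.5% rising). Without the 1000 mkd rats, a setting added after seeing the data, 0 of the 41 had a trend by edgeR. The 7 without a trend over all doses were B2m, Psme1, RT1-A3, RT1-Bb, RT1-DOa, RT1-DOb and RT1-N2.

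In experiment B the highest number of calls was in females day 29 at 1500 mkd, where 8 of the 41 genes were up-regulated and 0 down-regulated, against 13.1% of the 11451 genes tested (9.55% higher). They were RT1-T24-1, RT1-T24-3, RT1-M3-1 and RT1-A1 of class I, RT1-DOa of class II, Tapbp, Psmb9 and Ciita. The median log2 fold change was 0.57 over 24 class I chains and 0.76 over 7 class II chains, beside -0.002 over all genes. The number of calls rested on single rats: leaving out 1 rat at a time gave 2 to 7 calls, with 5 without control replicate 1, 3 without control replicate 4, 4 without control replicate 5, 5 without treated replicate 1 and 2 without treated replicate 2 or 3. Only RT1-T24-1 was separated from the controls in all 5 rats, 1 of 41 against 3.51% of all genes.

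RT1-T24-1, a nonclassical class I gene, had 2.37, 3.38, 2.72, 2.85 and 3.04 CPM in control females day 29 and 6.45, 7.55, 8.45, 4.92 and 10.6 CPM at 1500 mkd. Every treated female was above every control. The log2 fold change was 1.40 (SE 0.25, n = 5 per group, edgeR adjusted p = 0.000384). It was also called at 1000 mkd (4.21, 5.14, 6.67, 5.79 and 6.26 CPM, log2 0.96, edgeR adjusted p = 0.0367), where 1.59% of all genes were called (1.23% higher), and this call was lost when any one of the 5 replicate numbers was left out of every group. At 300, 500 and 750 mkd 0 of the 41 were called by edgeR, against 0, 0.0349 and 0.183% of all genes, with 1, 3 and 4 at an unadjusted p under 0.05, and over the 4 lower doses DESeq2 called 1 in all. RT1-T24-3 had 16.2, 8.82, 9.18, 5.22 and 8.84 CPM in controls and 25.2, 54.1, 25.7, 17.9 and 12.5 CPM at 1500 mkd. Of the 5 treated rats, 4 were above the controls, with a log2 fold change of 1.49 (SE 0.38, edgeR adjusted p = 0.00682). RT1-M3-1 had 4.24, 5.54, 4.69, 2.41 and 3.4 CPM in controls and 7.95, 11.5, 7.55, 5.32 and 4.47 CPM at 1500 mkd. Of the treated rats 3 exceeded the controls, and the log2 fold change was 0.86 (SE 0.28, edgeR adjusted p = 0.0283).

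Tapbp in females day 29 had 56.7, 66.9, 59.7, 64.1 and 79 CPM in controls and 98.7, 144, 115, 87 and 57.2 CPM at 1500 mkd. Replicate 5 stayed within the controls and the other 4 treated rats were above them, with a log2 fold change of 0.62 (SE 0.16, edgeR adjusted p = 0.00853). Psmb9 had 48.4, 42.5, 37.4, 47.5 and 73.2 CPM in controls and 66.8, 82.8, 101, 68.9 and 58.6 CPM at 1500 mkd. Only 2 treated rats were above all controls, since control replicate 5 was high, and the log2 fold change was 0.60 (SE 0.16, edgeR adjusted p = 0.0113). Ciita had 4.98, 6.65, 6.12, 4.49 and 2.52 CPM in controls and 12.3, 10.7, 9.27, 9.1 and 4.85 CPM at 1500 mkd. Of the 5 treated rats, 4 were above the controls, with a log2 fold change of 0.90 (SE 0.30, edgeR adjusted p = 0.0323). Of 21 alternatives, 11 lost the call of RT1-M3-1, 12 that of Ciita, 8 that of Psmb9, 8 that of Tapbp, 10 that of RT1-A1 and 15 that of RT1-DOa.

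The main class II chains did not pass in females day 29, and their values were widely spread at 1500 mkd. RT1-Da had 66.9, 114, 111, 83.7 and 51.3 CPM in controls and 273, 70.5, 78.4, 192 and 143 CPM at 1500 mkd. Replicates 1, 4 and 5 were above all controls and replicates 2 and 3 lay within their range, with a log2 fold change of 0.83 (SE 0.38, edgeR adjusted p = 0.128). RT1-Ba (log2 0.76, edgeR adjusted p = 0.198) and Cd74 (0.62, edgeR adjusted p = 0.251) did not pass either. RT1-Ba ran from 49.4 to 116 CPM in controls and from 63.7 to 270 CPM at 1500 mkd, and Cd74 from 144 to 398 CPM and from 208 to 731 CPM. B2m had a log2 fold change of 0.10 (edgeR adjusted p = 0.65), with 1787 to 3190 CPM in controls and 2182 to 2749 CPM at 1500 mkd. Cell type markers moved here too: 4 of 11 macrophage markers were higher (sums 1162 to 1419 and 1323 to 2595 CPM), as were 4 of 9 T and NK cell markers (21.6 to 51.7 and 39.2 to 81.1 CPM), 0 of 7 dendritic cell and 0 of 3 B cell markers, and of 10 hepatocyte markers Apoa1 was higher and Alb and Cps1 were lower. Of the interferon gamma list 4 of 13 and of the type I list 2 of 10 were higher, with log2 1.68 for Gbp2 and 2.47 for Irf7. Their part in the result was not tested. A dose trend passed in 9 of the 41, all rising, against 27.3% of all genes (15.4% rising): the 8 called genes and Psme2.

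In males day 29 edgeR called 0 of the 41 genes at 1500 mkd, where 4.91% of the 11279 genes tested were called. DESeq2 also called 0, and 6 genes were higher and 1 lower at an unadjusted p under 0.05. The median log2 fold change was -0.13 over class I and 0.33 over class II, beside 0.07 over all genes, and 0 of the 41 lay wholly above the controls against 2.86% of all genes. B2m (0.25), RT1-Da (0.48), Cd74 (0.41) and Ciita (0.42) did not pass. At 300, 500 and 750 mkd 0 of the 41 were called by edgeR, against 0, 0 and 0.78% of all genes, with 1, 2 and 3 at an unadjusted p under 0.05. At 1000 mkd the call covered Psmb10 alone, and over the lower doses DESeq2 made 2 calls. It had 26.9, 21.8, 23.1, 20.4 and 26.4 CPM in controls and 30.8, 35.1, 68.4, 33.4 and 34.7 CPM at 1000 mkd, all above the controls, with a log2 fold change of 0.77 (SE 0.20, edgeR adjusted p = 0.0342) where 2.76% of all genes were called (0.949% higher). The call was lost when replicate number 2, 3, 4 or 5 was left out of every group, and 13 of the 41 genes were higher and 0 lower at an unadjusted p under 0.05. At 1500 mkd its log2 fold change was 0.30 (edgeR adjusted p = 0.316). Trends rose in 6 of the 41, Psmb9, Psme2, RT1-M3-1, RT1-N3, RT1-T24-1 and RT1-T24-2, against 24.5% of all genes (13.9% rising), and leaving out the rats numbered 1 gave 0 trends. Of 11 macrophage markers and 6 T and NK cell markers tested, 0 were called in these males.

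On day 8 of experiment B edgeR called no gene of the group at 1500 mkd in either sex. In females day 8, edgeR called 0 of the 41 against 0.705% of all genes, with 8 higher and 1 lower at an unadjusted p under 0.05, and DESeq2 called 2, one in each direction. Tapbp had a log2 fold change of 0.65 (edgeR adjusted p = 0.0859) and a rising trend (0.43 log2 per 1000 mkd, edgeR adjusted p = 0.0283), the only trend of the group, where 5.44% of all genes had one (3.76% rising). RT1-A3 separated the groups in these females, with 14.8 to 22 CPM in controls and 23.6 to 42.7 CPM at 1500 mkd, 1 of 41 against 1.65% of all genes, and its adjusted p was 0.161 by edgeR. The class II median was -0.37 and the class I median 0.26. At 300, 500, 750 and 1000 mkd 0 were called by edgeR or DESeq2, against 0.0087, 0.0174, 0.0174 and 1.37% of all genes, with 3, 1, 7 and 1 at an unadjusted p under 0.05. RT1-Db2 had the lowest class II value, a log2 fold change of -1.53 (edgeR adjusted p = 0.116).

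In males day 8, edgeR called 0 of the 41 at 1500 mkd against 0.177% of all genes, DESeq2 called 0, and 2 were higher at an unadjusted p under 0.05. A trend passed in 0 of the 41 by edgeR and by DESeq2, against 2.52% of all genes, and 2 rose at an unadjusted p under 0.05. Tapbp had 45.9, 51.3, 47.5, 49.5 and 39.6 CPM in controls and 55.8, 56.2, 70.7, 55.7 and 58.2 CPM at 1500 mkd. All 5 treated males were above the controls, by little, with a log2 fold change of 0.34 (edgeR adjusted p = 0.223), 1 of 41 genes without overlap against 1.45% of all genes. RT1-Da (log2 0.02) and B2m (-0.00) were close to 0. At 300, 500, 750 and 1000 mkd, the last of which was the highest dose of experiment A, edgeR and DESeq2 called 0 of the 41 in these Crl:WI males, against 0% of all genes, with 0, 1, 2 and 2 higher at an unadjusted p under 0.05. Whether the response to acetamide differed between the Hsd:WI and the Crl:WI males was not tested, and strain, experiment and count table cannot be told apart.

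Whether the change at 1500 mkd differed between sexes or between days was tested within experiment B. By edgeR 0 of the 41 genes had a sex interaction on day 8, 0 on day 29, 0 a time interaction in males and 0 in females, against 0, 0.466, 0 and 0.0169% of all genes, and DESeq2 found 0 in each. An unadjusted p under 0.05 was reached by 1, 5, 1 and 5 genes, all with a positive difference. The lowest adjusted p was that of Tapbp for sex on day 29 (difference of log2 fold changes, females minus males, 0.54, SE 0.22, edgeR adjusted p = 0.181). Each sex and day is a count table of its own with its own controls, and table, sex and day cannot be told apart in these terms.

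Among vehicle controls, 4 genes differed between the sexes on day 29, where 11.8% of all genes did. Psmb10 was 43.7 CPM ± 12.6 (SD, n = 5) in females and 22.9 ± 2.69 in males (log2 0.93, edgeR adjusted p = 0.00922). Psmb8 was 30.7 CPM in females and 18.6 in males (0.72, edgeR adjusted p = 0.0362), and RT1-N3 10.1 and 5.05 CPM (0.99, edgeR adjusted p = 0.0486). RT1-CE4 was lower in females, 27.4 against 47.5 CPM (-0.79, edgeR adjusted p = 0.0272). Class I genes also varied from rat to rat, as described below. All 5 control males of day 29 were above a gap in RT1-CE3 and RT1-CE6, against 2 of the 5 control females. The part of this in the class I differences was not tested. DESeq2 called 6. Leaving out replicate number 1, 3 or 4 left 1 call, leaving out number 5 left 2 and leaving out number 2 gave 6 (1 higher and 5 lower). These CPM were scaled over the control rats of all data sets. By edgeR 0 genes differed between sexes on day 8, between days in males or in females, or between Hsd:WI and Crl:WI males of day 8, against 7.95, 0.0266, 0.859 and 1.22% of all genes, with 1, 6, 1 and 12 at an unadjusted p under 0.05. DESeq2 called 4 genes lower in Hsd:WI and 0 in the other 3.

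Some RT1 genes varied widely from rat to rat within the dose groups. Over the 120 Crl:WI rats RT1-CE3 ran from 0.297 to 81.9 CPM, and no rat lay between 7.93 and 18.4 CPM, with 62 rats below and 58 above. RT1-CE6 had no rat between 8.67 and 11.8 CPM, again with 62 below and 58 above, and the same 58 rats were above for both genes. Among the 62 below, RT1-CE3 had a further empty range between 1.27 and 2.33 CPM, with 29 rats under it and 33 over it. This was noticed after the values were seen and is given without a test. Each group of 5 held 1 to 5 such rats, and the control males day 29 were the only group in which all 5 were above. The 1500 mkd males day 29 held 3, the female day 29 controls and 1500 mkd rats 2 each, the male day 8 groups 3 and 2, and the female day 8 groups 3 and 1. The class I sum of the control males day 29 ran from 1420 to 2028 CPM, and they were compared with dosed groups that held 2 to 4 such rats. They also entered the control comparison with females and the day 29 sex interaction. The part of this imbalance in those results was not tested. In experiment A RT1-CE3 had 4.63, 2.5, 4.46, 8.58 and 3.15 CPM in controls and 42.3, 54.7, 8.46, 9.66 and 11.8 CPM at 1000 mkd. The highest rat at 30, 100 and 300 mkd, where it was not called, had 32.1, 26.6 and 31.8 CPM.

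**Figure D5:**
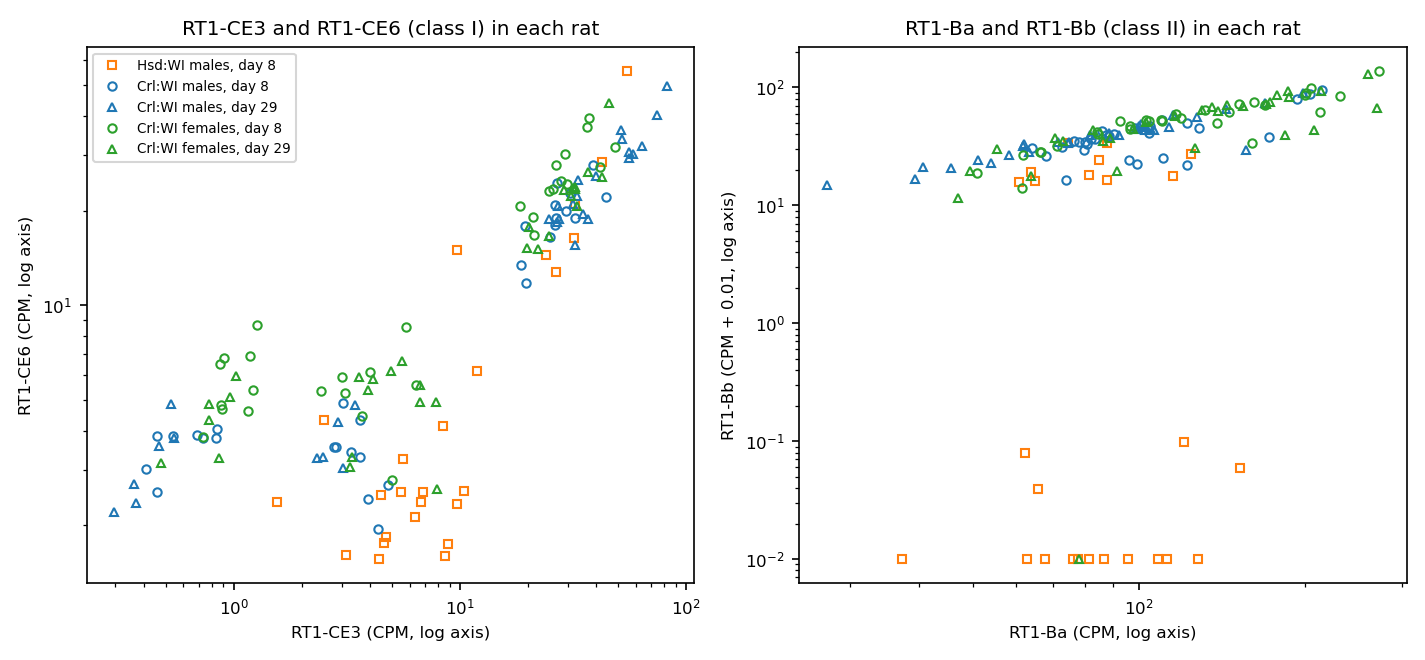
Left, CPM of RT1-CE6 against RT1-CE3 and right, CPM of RT1-Bb plus 0.01 against RT1-Ba, in each rat of the 5 data sets (1 symbol per rat, log axes). On the left the Crl:WI rats fall into groups with an empty range from 7.93 to 18.4 CPM of RT1-CE3, and on the right 15 of the 25 Hsd:WI rats (squares) lie at the bottom, with at most 3 counts of RT1-Bb.

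RT1-Bb, the beta chain that pairs with RT1-Ba, was nearly absent in part of the Hsd:WI rats. It had at most 3 counts in 15 of the 25, in 3, 4, 2, 3 and 3 of the 5 rats at 0, 30, 100, 300 and 1000 mkd, while the other 10 had 15.9 to 33.5 CPM. RT1-Ba was present in all 25, at 37.2 to 152 CPM. In the 120 Crl:WI rats RT1-Bb was at most 3 counts in 1 rat, control female day 29 replicate 1. A 0 here limits reads that aligned to the reference copy of the gene, not the transcript of another allele.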

How the data were processed

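Left liver lobe RNA was made into stranded mRNA libraries, 1 per rat. The authors trimmed the reads with Trimmomatic, aligned them to the Rn6 build with Bowtie2 and counted reads per gene with HTSeq (versions not given in the sources used here), and they deposited raw counts in 5 tables, one per data set. The HTSeq summary lines, which hold 35.5 to 67.1% of the reads in experiment B and include those of low alignment quality (13.6 to 46.7%), were kept out of library sizes and tests.

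Groups came from strain, sex, day and dose in the labels. In each data set, all doses entered 1 fit in R 4.3.3 with edgeR 4.0.16: filterByExpr, TMM scaling, and the quasi-likelihood test against vehicle, with Benjamini-Hochberg adjustment over all genes tested. A call needed a fold change of at least 1.5 and an adjusted p of at most 0.05, and dose trends (linear, log2 per 1000 mkd), sex and time interactions and control comparisons used the same adjustment, the trends and interactions without a fold criterion. The SE of a log2 fold change was taken from the fitted value and its F statistic. CPM used TMM effective library sizes, scaled within each data set, or over all 25 controls together for the control comparisons. DESeq2 1.42.0, no filter, a count minimum of 10 in every rat, other size factors, other doses, each rat left out and a replicate block were the alternatives. The code was tested on simulated data.

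All named symbols, class II genes and tested class I genes were named, with full values for the 6 called genes of lowest adjusted p in a data set and for B2m, Cd74, Ciita, RT1-Da and RT1-Ba. The genes and the marker lists (peptide loading, constitutive proteasome, class II processing, class I-like, interferon gamma, type I interferon, hepatocyte, macrophage, dendritic, B cell, T and NK cell, neutrophil and endothelial) were chosen with earlier results of these data known. Rats of a group are separate animals, numbered as in their titles; another label gives 13 rats of experiment A a different number, and leaving out or blocking by number used the titles. RefSeq promoters were matched by symbol.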

Additional observations from a re-analysis of the deposited data

Results flagged for a closer look

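For 13 genes and 2 class sums, 150 sets of 5 values from the control and highest dose groups were checked, and 11 held a rat whose gap to the nearest other rat was over 0.71 of the range. Chance flags about 1 in 20, and the sets share rats, so the 11 are not independent. In experiment A, control replicate 1 had RT1-Ba at 37.2 CPM (others 77.6 to 87.7), and 1000 mkd replicate 3 had a class II sum of 235 CPM (others 363 to 412). In males day 8 at 1500 mkd, replicate 4 had RT1-Ba at 205 CPM (others 72.5 to 110), and replicate 3 had RT1-T24-1 at 7.37 CPM (others 1.83 to 2.77) and Tapbp at 70.7 CPM (others 55.7 to 58.2). In males day 29 at 1500 mkd, replicate 1 had Cd74 at 473 CPM (others 202 to 273), and replicate 3 had RT1-T24-1 at 13.9 CPM (others 2.68 to 4.86) and Tapbp at 80.8 CPM (others 53.8 to 59.0). In females day 8 at 1500 mkd, replicate 4 had RT1-T24-1 at 9.27 CPM (others 3.04 to 4.36) and RT1-T24-3 at 44.8 CPM (others 7.42 to 15.6). In females day 29 at 1500 mkd, replicate 3 had a class I sum of 2636 CPM (others 1370 to 1580).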

How the results depend on the processing

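Calls were recomputed under each alternative. None of the 40 gene results at the highest dose changed direction, but these were only the genes already called in the main fit. Of 135 values of counts under alternatives that left out no single rat or replicate number, 122 stayed within 1.5 times, which includes each count of 0 that stayed 0. With DESeq2 the calls numbered 2 at the lower doses of males day 29, 2 at 1500 mkd in females day 8 and 4 (all lower in Hsd:WI) between the strains' controls, and a replicate block gave 1 there. With only the control and highest dose groups, females day 29 had 2 calls, and with no filter males day 29 had 2 at 1500 mkd and females day 8 had 2 trends. On a log10(1 + dose) scale the trends numbered 13 in experiment A, 1 in females day 29, 0 in females day 8 and 2 in males day 29. Without the highest dose, chosen after seeing the data, they numbered 0 in experiment A and 2 in females day 29. Leaving out 1 rat or 1 replicate number at a time gave 18 to 34 calls at 1000 mkd in experiment A (the fewest, 18 and 21, without number 3 or 5 in every group), 2 to 7 at 1500 mkd in females day 29, 0 to 2 in females day 8, 0 to 1 in males day 29 (1 without treated replicate 4), 0 at the lower doses of females day 29, 0 to 1 at those of males day 29, 1 to 6 between the sexes' controls on day 29, 0 to 1 between the strains, 0 to 2 trends in females day 8 and 0 to 6 in males day 29 (1 rising and 1 falling without number 3). In females day 8 the 2 calls came without treated replicate 1 or 5. Tapbp in experiment A was called in 22 of 22 alternatives (highest edgeR or DESeq2 adjusted p 0.00659) and RT1-T24-1 in females day 29 in 21 of 21, RT1-CE16 in 6 of 22 and RT1-DOa in females day 29 in 6 of 21. The deviations of same-numbered control and highest dose rats from their group means correlated at -0.046 to 0.149 in experiment A and, in experiment B, at -0.066 to 0.307 (males day 8, 4 of 5 pairs over 0.1), -0.249 to 0.261 (males day 29, 3 of 5), -0.021 to 0.336 (females day 8, 3 of 5) and -0.143 to 0.191 (females day 29, 3 of 5). Of the controls, 1 of 4 in experiment A correlated best with the treated rat of its own number. In experiment B these were 4 of 5 in males day 8, 3 of 5 in males day 29, 3 of 5 in females day 8 and 1 of 5 in females day 29. In no data set did every pair exceed 0.1, and by this rule the numbers were not taken as pairing, though some structure by number remains possible. The block gave 27 calls in experiment A and 8 in females day 29. Near-identical RT1 copies and reads dropped for low alignment quality limit what 1 RT1 gene's count means.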

Other observations

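A pair of class I genes that the filter left out was far higher in 1 rat than in any other. RT1-M4 had 106 counts and RT1-M5 100 counts in the 1500 mkd male day 29 replicate 3, where the next highest rat of the series had 8 and 7 counts. The paper reports this rat as an outlier in Ki67 labelling, its measure of cell proliferation, and excluded it from its dose modelling of that measure. In the same rat RT1-T24-2 was 4.62 CPM, against at most 1.04 CPM in the other 29 males of day 29, and RT1-S3 was 87.9 CPM, against at least 210 CPM. Its hepatocyte marker sum was 108010 CPM, against 178420 to 220660 CPM in the other 4 males of its group, and its endothelial marker sum was 271 CPM, against 69.7 to 132 CPM. Their part in these values was not tested. These genes were picked out after their values were seen.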
